A study of Mus musculus with 24 samples.

Results

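Spinal cord pulldowns made without Cre recombinase were compared between mice heterozygous for the C201R mutation of Gars and wild-type mice. The comparison holds every library labelled as a negative control, which is 12 of the 24 libraries in the study: 6 of the genotype Rpl+/-;Chat+/+;C201R+/- and 6 of the genotype Rpl+/-;Chat+/+;C201R+/+. All 12 mice carried 1 copy of the Cre-dependent HA-tagged Rpl22 allele, had no Cre at the Chat locus, were of the B6.CgxB6.129 background and were 8 weeks old. The other 12 libraries came from mice of both Gars genotypes with Cre (Chat+/-) and are used here only to set levels side by side. The libraries are named by the numbers of the mice, which all differ. The labels give neither litters nor sex. Frozen cord was powdered and sonicated, cleared on Sepharose and then incubated with anti-HA antibody and magnetic beads.

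In the RiboTag method, Cre switches on an HA tag on Rpl22, a protein of the large ribosomal subunit, in chosen cells, and ribosomes of those cells are pulled out with their mRNA. Without Cre no cell should carry the tag, and what comes down is RNA carried along from the homogenate of the whole cord. Such pulldowns are the control for pulldowns from cholinergic cells, whose Cre is driven from the Chat locus. Gars encodes glycyl-tRNA synthetase, which joins glycine to its tRNA, and dominant mutations in it cause a neuropathy of peripheral motor and sensory axons. A genotype difference in the background can enter a comparison of pulldowns with Cre, which is the question addressed here.

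Many counts of the background fell on the ribosomal RNAs of mitochondria and on gene models made of a tandem repeat. Expected counts totalled 8898845 to 14302608 per library, and 29.7% to 52.2% of them fell on mt-Rnr1 and mt-Rnr2, the ribosomal RNAs of mitochondria. After mitochondrial genes and Gm26924, a model in which reads of nuclear ribosomal RNA gather, were set aside, 4188228 to 7193269 counts were left per library. A set of 10 predicted gene models, led by Gm26870, took up to 5.29% of counts. In GENCODE M21 (GRCm38) the Gm26870 transcript lies on chromosome 9, is 1170 bases long and repeats itself every 234 bases, with 81.5% of bases matching the base 234 positions further on. The other models were put in the set because they matched themselves best at the same spacing. A unit of 234 bases is the length of the mouse major satellite, the repeat of the centromere-flanking heterochromatin. The first 2 units of the Gm26870 transcript are shown because their level separates the libraries. Capitals mark the 6 positions at which they differ.
Gm26870 bases 1 to 234: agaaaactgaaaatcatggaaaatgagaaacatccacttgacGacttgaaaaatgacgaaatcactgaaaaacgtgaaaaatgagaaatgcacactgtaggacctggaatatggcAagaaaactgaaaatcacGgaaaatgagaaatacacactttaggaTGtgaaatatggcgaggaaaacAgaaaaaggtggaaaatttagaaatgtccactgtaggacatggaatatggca
Gm26870 bases 235 to 468: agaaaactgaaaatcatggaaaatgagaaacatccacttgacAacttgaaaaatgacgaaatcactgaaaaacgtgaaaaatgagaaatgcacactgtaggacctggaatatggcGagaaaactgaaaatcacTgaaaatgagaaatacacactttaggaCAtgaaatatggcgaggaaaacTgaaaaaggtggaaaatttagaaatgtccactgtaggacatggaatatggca

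The repeat set 2 wild-type libraries apart. In C201R libraries the repeat models took 1.16% to 5.29% of counts (median 4.25%), and in wild-type libraries 0.0672% to 4.87% (median 4.27%). The lowest wild-type values were 0.0672% in mouse 14702-6 and 0.0805% in mouse 14702-4, and the lowest C201R value was 1.16% in mouse 14003-3. These 3 libraries also had the lowest shares of mitochondrial mRNA (3.41%, 3.32% and 4.54%) and the highest shares of nuclear long noncoding RNA such as Malat1 and Meg3 (5.36%, 5.61% and 5.23%). Counts do not tell transcripts of a genomic repeat from copies of its DNA. Mouse 14702-6 stood apart in the sex-linked genes as well. It had 8330 counts of Xist, which is made from the inactive X chromosome, together with 53 of Ddx3y and 84 of Eif2s3y, which lie on the Y chromosome. The other 5 libraries with more Xist than Y-linked counts had at most 1 count of Ddx3y and 2 of Eif2s3y. Kdm5d and Uty, also on the Y chromosome, had 0 and 4 counts in mouse 14702-6, within the range of those 5 libraries. The source of these counts was not tested.

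**Figure D1:**
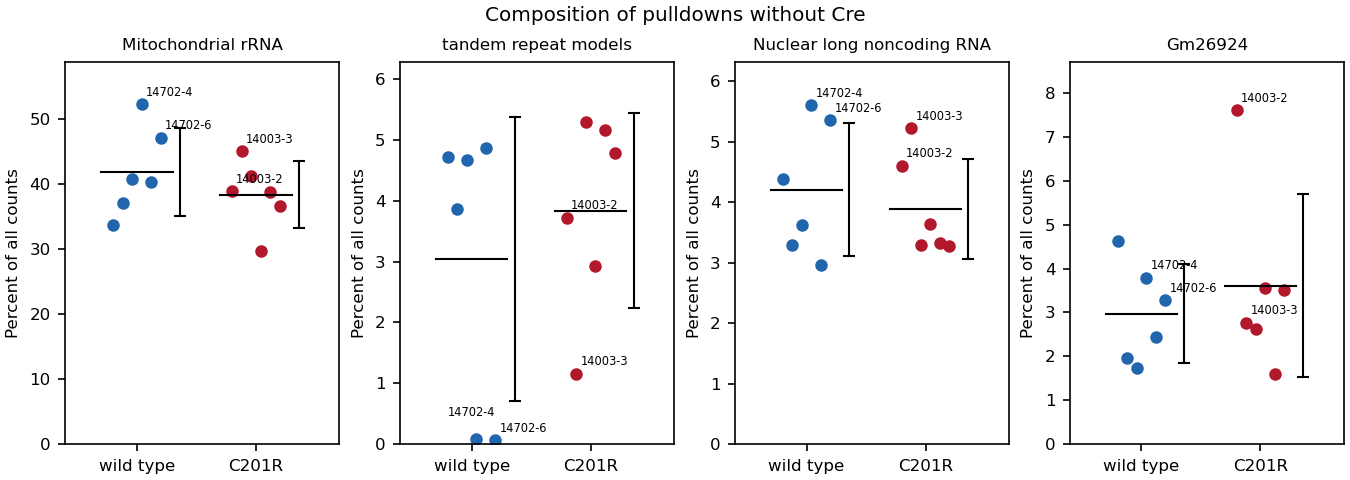
Shares of counts in each of the 12 pulldowns without Cre, as percent of all expected counts on axes that start at 0. Points are libraries (blue, wild type; red, C201R), horizontal lines are group means and bars are SD (n = 6). In the repeat panel wild-type mice 14702-4 and 14702-6 lie near 0, while the other 4 wild-type libraries lie between 3.87% and 4.87%.

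The genotypes overlapped in every measure of library composition. The mean share of mitochondrial ribosomal RNA was 38.3% ± 5.1 for C201R and 41.8% ± 6.8 for wild type (SD, n = 6; exact two-sided permutation p = 0.340). For the repeat models the means were 3.84% ± 1.6 and 3.05% ± 2.33 (SD, n = 6; exact two-sided permutation p = 0.498). Of 10 such measures, each tested by exact permutation of the genotype labels, none had an adjusted p under 0.795. The smallest p that 6 libraries against 6 allow is 0.0022. The plot of library composition shows the overlap of the groups in 4 of the measures.

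The RNA that came down without Cre was that of a mixed spinal cord. Per length, on the TPM scale, Malat1 had the highest median over the 12 libraries (27127 TPM, range 21984 to 42372). The synaptic gene Snap25 had a median of 1737 TPM, and the myelin gene Mbp had 1148 TPM. The neurofilament gene Nefl, abundant in large axons, was among the 15 highest genes with 488 TPM. All 13 Hox genes of the spinal cord list were tested, and their summed level ran from 154 to 259 CPM. CPM is a gene's count relative to the scaled library total, not corrected for length. Oligodendrocyte genes summed to between 4496 and 7638 CPM, astrocyte genes to between 1829 and 2469 CPM and microglia genes to between 56.2 and 133 CPM. Transcripts of dorsal root ganglion neurons, which lie outside the cord, were low, and none of their 6 listed genes passed the filter on low counts. Their sum ran from 0 to 27.9 CPM in C201R (median 1.00) and from 0.50 to 18.1 CPM in wild type (median 5.47). Hemoglobin and other blood genes ran from 91.5 to 1476 CPM in sum and skeletal muscle genes from 5.15 to 482 CPM, so both varied widely between mice.

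Gars and Rpl22 had overlapping levels in the genotypes, and Chat was lower in C201R without being called. Gars ran from 15.2 to 27.6 CPM in C201R (median 20.2) and from 14.6 to 37.1 CPM in wild type (median 20.4), so that the groups overlapped throughout. Its log2 difference was -0.24 ± 0.24 (SE; 95% interval -0.75 to 0.26). C201R is a point mutation, so the level of Gars does not check the genotype. Rpl22, the tagged gene, ran from 8.75 to 17.3 CPM (median 14.1) and from 10.2 to 13.7 CPM (median 11.8), with a log2 difference of 0.19 ± 0.23. Chat, which makes acetylcholine, ran from 0.74 to 2.87 CPM in C201R (median 1.59) and from 1.41 to 7.28 CPM in wild type (median 3.49). Its log2 difference was -1.20 ± 0.52 (95% interval -2.29 to -0.11), and 2 wild-type libraries lay within the C201R range.

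Over all genes, no difference between the genotypes passed the test. Of 14400 genes tested with edgeR's quasi-likelihood test, 0 (0%) had an adjusted p under 0.05, and the smallest adjusted p was 0.9999. An unadjusted p under 0.05 was reached by 455 genes (3.16%), of which 159 (1.1%) were higher and 296 (2.06%) lower in C201R. The 6 libraries of one genotype all lay above the 6 of the other for 17 genes higher in C201R (0.118%) and 11 lower (0.0764%). DESeq2 called 2 genes (0.0139%), Chodl and Nme3, and limma-voom called 1 (0.00694%), a gene model of Sowahc.

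The width of the intervals shows how closely each difference was measured. The biological coefficient of variation was 49.2% without Cre and 41.9% with Cre, and the median SE of a log2 difference was 0.36 and 0.28. For 6947 genes (48.2%) the 95% interval lay wholly within a 2-fold change in either direction. Among genes with a mean of at least 20 CPM this held for 3210 of 3481 (92.2%), and among genes under 2 CPM for 2 of 2335. For nearly all of the least abundant genes a 2-fold difference was therefore not excluded. These intervals are not adjusted for the number of genes and do not show what would be called. Cd24a, at a mean of 67.7 CPM and a log2 difference of -1.07, had an edgeR adjusted p of 0.9999.

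**Figure D2:**
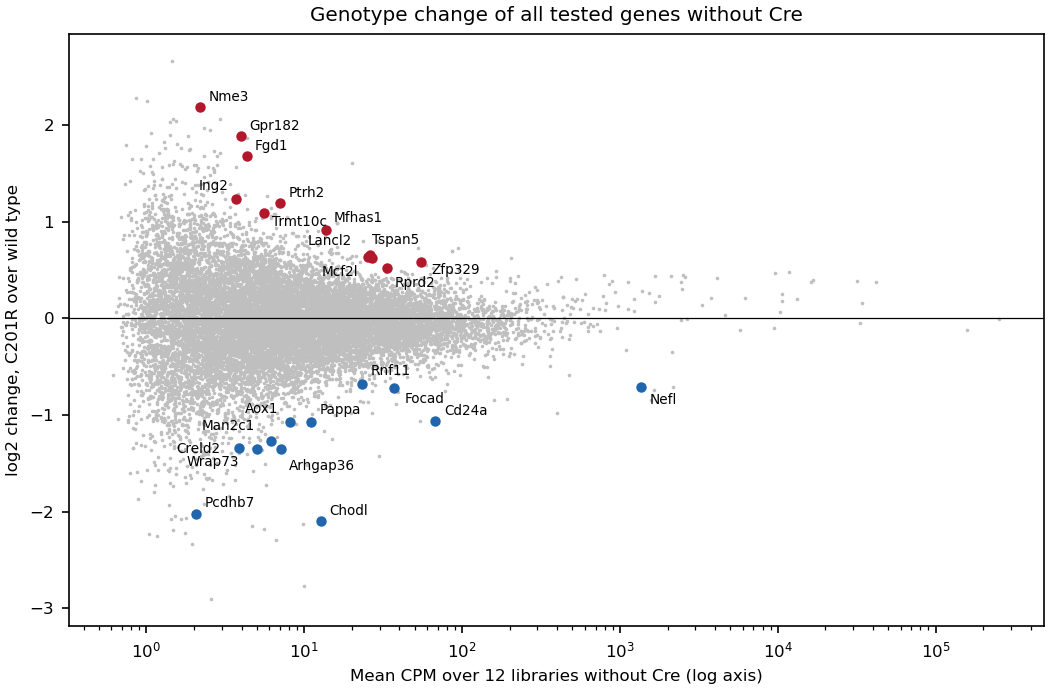
log2 difference of C201R over wild type against mean CPM (log axis) for all 14400 genes tested without Cre. Coloured points are the 12 genes with the smallest p in each direction (red, higher in C201R; blue, lower), and the spread of the grey points narrows with level; few genes of the abundance of Chodl lie as far from 0 as its -2.09.

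Nme3, which encodes a nucleoside diphosphate kinase at the mitochondrial surface, had the smallest p of the genes higher in C201R. Its level ran from 3.05 to 4.68 CPM in C201R (median 3.49) and from 0.37 to 1.33 CPM in wild type (median 0.76). Every C201R library was above every wild-type library, and the log2 difference was 2.18 ± 0.50 (SE; 95% interval 1.14 to 3.22; DESeq2 adjusted p = 0.022). With Cre the groups overlapped, at 1.16 to 6.94 CPM in C201R (median 4.17) and 2.91 to 11.5 CPM in wild type (median 4.77), and the log2 difference was -0.44 ± 0.39 (edgeR adjusted p = 0.60). The test of the difference between these values did not pass (-2.62 ± 0.59, edgeR adjusted p = 0.070).

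Tspan5, a tetraspanin that sorts the protease ADAM10, was the other gene of this group whose libraries did not overlap. It ran from 25.4 to 34.8 CPM in C201R (median 30.9) and from 16.3 to 23.96 CPM in wild type (median 18.8), with a log2 difference of 0.64 ± 0.18. The remaining genes with the smallest p in this direction were Gpr182, Ptrh2, Zfp329, Mcf2l, Trmt10c, Mfhas1, Fgd1, Ing2, Rprd2 and Lancl2, with log2 differences from 0.52 (Rprd2) to 1.88 (Gpr182). Ptrh2, a mitochondrial peptidyl-tRNA hydrolase, was the only 1 of the 12 that was also called higher with Cre (1.31 ± 0.33, edgeR adjusted p = 0.041), beside 1.19 ± 0.36 without it. Trmt10c, a subunit of mitochondrial RNase P, had a log2 difference of 1.08 ± 0.34 without Cre and -0.26 ± 0.19 with it. These 12 genes were picked by their p, so their differences are a description.

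The 12 genes with the smallest p among those lower in C201R had varied roles. Chodl, which encodes a membrane lectin of fast motor neurons, had the smallest p of all genes (log2 difference -2.09 ± 0.44). Cd24a, a surface glycoprotein of neurons and blood cells, followed with -1.07 ± 0.26 (95% interval -1.61 to -0.52). Its level ran from 27.0 to 70.4 CPM in C201R (median 37.4) and from 64.1 to 172 CPM in wild type (median 79.3), with 2 wild-type libraries inside the C201R range. With Cre, Cd24a was called lower by -1.79 ± 0.14. Rnf11, a ubiquitin ligase, ran from 11.6 to 22.4 CPM and from 23.8 to 35.7 CPM (medians 19.7 and 27.5) with no overlap, a log2 difference of -0.68 ± 0.19, and -0.01 ± 0.18 with Cre. Creld2, a chaperone of the endoplasmic reticulum, ran from 0.56 to 3.83 CPM and from 4.09 to 6.56 CPM (medians 2.05 and 5.61), also with no overlap. Pcdhb7, Focad, Aox1, Wrap73, Arhgap36, Man2c1, Pappa and Nefl complete the 12, with log2 differences from -2.02 (Pcdhb7) to -0.71 (Nefl).

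Cholinergic and motor neuron genes were lower in C201R as a list, without any member being called. Of 14 listed genes found in the files 11 were tested, all 11 had a negative log2 difference, and 5 were lower at an unadjusted p under 0.05, as were 2.06% of all genes. Their median was -1.02, beside -0.04 over all genes tested, of which 54.5% were negative. Mnx1, Isl2 and Uts2b failed the filter on low counts, and their groups overlapped. Their highest levels were 1.01, 1.44 and 1.61 CPM in C201R and 0.74, 1.60 and 1.58 CPM in wild type. The direction of this list without Cre was known when its members were chosen, so the count is a description.

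Calca, the gene of the neuropeptide CGRP, ran from 1.77 to 7.37 CPM in C201R (median 3.14) and from 2.19 to 46.9 CPM in wild type (median 12.6). Its log2 difference was -2.12 ± 0.63, and only wild-type mice 14702-4 (2.19 CPM) and 14702-5 (7.05 CPM) lay within the C201R range. Chodl ran from 1.91 to 8.60 CPM in C201R (median 4.54) and from 7.60 to 47.2 CPM in wild type (median 17.1), and the groups crossed at 1 library each. Prph, the intermediate filament of motor and sensory neurons, ran from 5.58 to 13.7 CPM and from 6.29 to 61.1 CPM (medians 7.89 and 13.6), with a log2 difference of -1.25 ± 0.52. Ahnak2 had -1.07 ± 0.39. The choline transporter gene Slc5a7 ran from 20.8 to 29.7 CPM and from 17.8 to 67.6 CPM (medians 22.3 and 26.4; -0.49 ± 0.25). The acetylcholine-degrading enzyme gene Ache, at 12.9 to 27.6 and 13.1 to 29.2 CPM, had -0.03 ± 0.25. Slc10a4, Isl1, Ret and Calcb lay between -1.02 and -0.35. Fewer motor neurons and less of their RNA per cell cannot be told apart in bulk pulldowns. The part of sensory neuron RNA in these values was not tested.

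Wild-type mouse 14702-6 was the highest of the 12 libraries for Chodl, Calca, Prph, Slc5a7, Cd24a and Nefl, and it is the library with the lowest share of the repeat models and with both Xist and Y-linked counts. Mouse 14702-4, with nearly as low a repeat share, was the lowest wild-type library for Chodl, Calca and Prph. Without mouse 14702-6 the list's median was -0.59, all 11 members stayed negative and 4 had an unadjusted p under 0.05. Without both mice it was -0.76, again with 11 negative members, and with the repeat share as a term in the fit it was -0.74. Chodl then had -1.70 ± 0.39 without mouse 14702-6 and -1.87 ± 0.38 without both, and Calca had -1.39 ± 0.46 and -1.66 ± 0.40. Prph had -0.59 ± 0.35 without mouse 14702-6, and no longer an unadjusted p under 0.05. Ahnak2 had -0.66 ± 0.33 without both mice. The part of the repeat share and of the Y-linked counts in the list's median was not tested beyond these values.

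**Figure D3:**
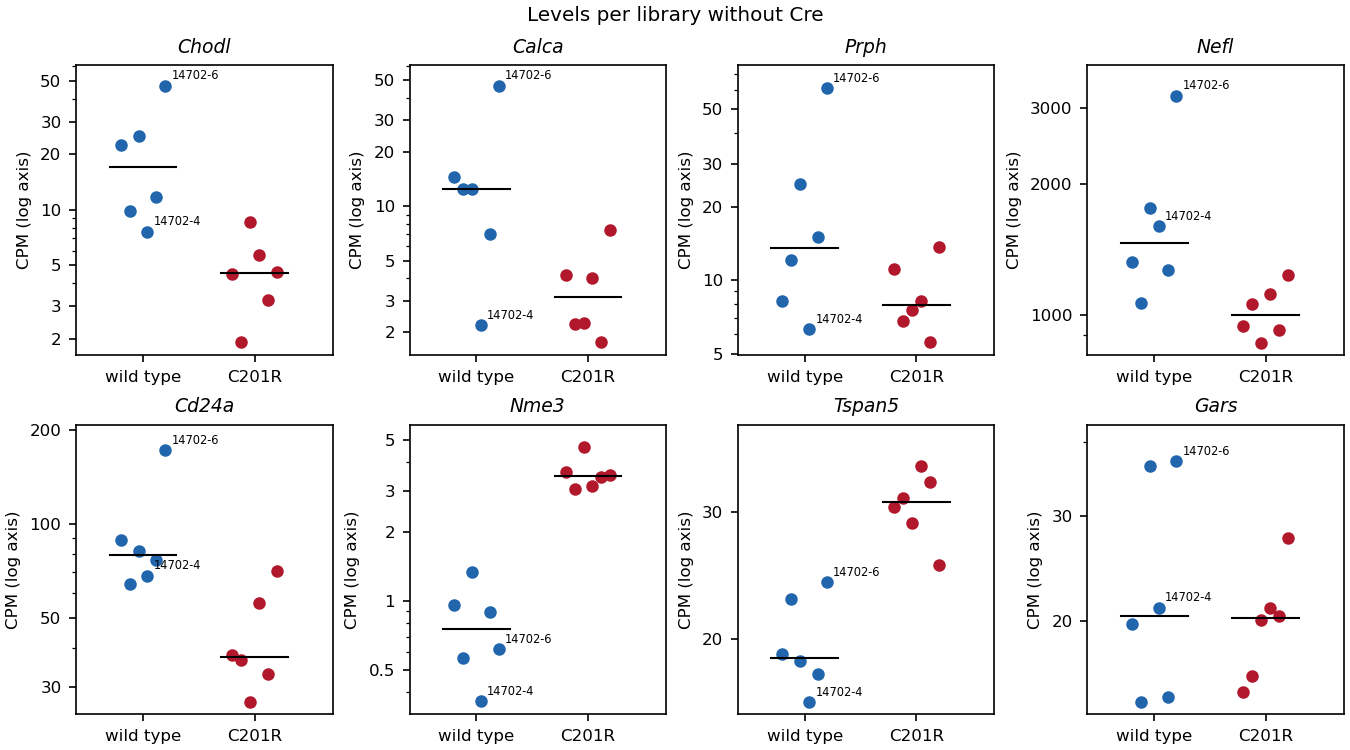
CPM (log axis) of 8 genes in each of the 12 pulldowns without Cre, with the group medians as lines (blue, wild type; red, C201R). Mouse 14702-6 is the highest wild-type library in 7 panels and mouse 14702-4 the lowest in 5 (Chodl, Calca, Prph, Nme3 and Tspan5); the groups do not overlap for Nme3 and Tspan5 and overlap fully for Gars.

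Neurofilament genes were lower in C201R as well, without being called. Nefl ran from 862 to 1235 CPM in C201R (median 1000.2) and from 1064 to 3208 CPM in wild type (median 1461), with a log2 difference of -0.71 ± 0.22, or -0.42 ± 0.19 without mice 14702-4 and 14702-6. Nefm and Nefh, which form the same filaments, had -0.84 ± 0.35 and -0.58 ± 0.23, and Stmn2, a tubulin-binding protein of axons, had -0.75 ± 0.25. These 4 were the members of the 13-gene neuronal list with an unadjusted p under 0.05. The other 9 ran from -0.41 (Uchl1) and -0.38 (Tubb3) over -0.20 (Eno2) and -0.13 (Map2) to 0.13 (Syt1), with Snap25, a protein of synaptic vesicle fusion, at -0.01 ± 0.22. The list's median was -0.20 with 10 negative members, and -0.05 with 8 negative members without mouse 14702-6. That fit left 2 members with an unadjusted p under 0.05, as did the fit without mice 14702-4 and 14702-6. The alpha motor neuron list shares Chodl and Calca with the cholinergic list. It had 7 of 8 negative members and a median of -0.67, or -0.39 without mice 14702-4 and 14702-6, while Rbfox3 (NeuN), which marks most neurons as well, had 0.13 ± 0.19.

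Genes of other spinal neurons, mostly interneurons, had a median of 0.09, with 10 of 16 members positive. The glycine transporter gene Slc6a5 ran from 98.1 to 245 CPM in C201R (median 218) and from 171 to 257 CPM in wild type (median 215), a log2 difference of -0.14 ± 0.19. The glutamate transporter gene Slc17a6 had 0.11 ± 0.19 and the GABA-synthesising enzyme gene Gad2 0.07 ± 0.22. Lmx1b, a transcription factor of dorsal horn neurons, had 1.31 ± 0.49. Lbx1, another such factor, was at 1.11 CPM or less in C201R and 1.15 CPM or more in wild type (-1.36 ± 0.67), so its groups did not overlap, at levels of a few counts.

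Glial genes had positive medians, from 0.07 for oligodendrocyte genes to 0.40 for microglia genes. Of 12 astrocyte genes 10 were positive, with a median of 0.18. Gfap, the filament of astrocytes, ran from 169 to 205 CPM in C201R (median 185) and from 113 to 175 CPM in wild type (median 133), with a log2 difference of 0.43 ± 0.16 (95% interval 0.10 to 0.76). Slc1a3 had 0.48 ± 0.21, while the most abundant member, the glutamate transporter gene Slc1a2, had 0.08 ± 0.16. Microglia genes had a median of 0.40 with 8 of 12 positive, and 2 of the 12 intervals lay within a 2-fold change. Sall1, a transcription factor of microglia, had 0.80 ± 0.32. Cx3cr1, P2ry12 and Siglech, which define resting microglia, had -0.06, -0.39 and -0.29, so the members had no shared direction. Oligodendrocyte genes had a median of 0.07, and all 12 intervals lay within a 2-fold change. Mbp ran from 1538 to 2165 CPM in C201R (median 1717) and from 1222 to 2240 CPM in wild type (median 1495), a log2 difference of 0.17 ± 0.18.

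**Figure D4:**
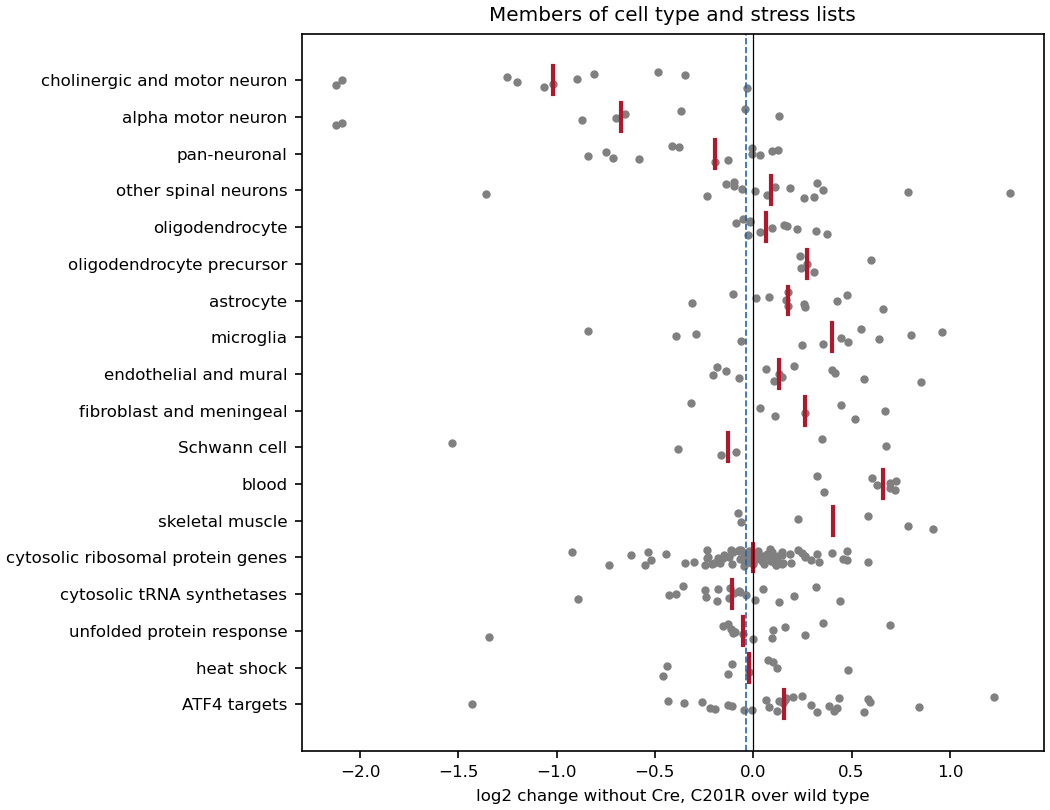
log2 difference without Cre (C201R over wild type) of each tested member of 18 gene lists. Grey points are genes, red bars are list medians and the blue dashed line is the median of all genes tested (-0.04). The cholinergic list has its median at -1.02 and all its points at or left of 0. Stress lists lie about 0, and the oligodendrocyte, astrocyte and microglia lists have medians of 0.07, 0.18 and 0.40.

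Genes of blood and of tissue attached to the cord overlapped between the genotypes. The 8 blood genes all had positive log2 differences (median 0.66), and their summed level ran from 92.8 to 1476 CPM in C201R and from 91.5 to 1288 CPM in wild type. The median was 1.79 without wild-type mouse 14004-4 and 0.20 without C201R mouse 14003-2 or without wild-type mouse 14701-1. No blood gene reached an unadjusted p under 0.05. The intervals are wide, as for Hbb-bs (0.63 ± 1.01). Schwann cell genes, which mark attached roots, had a median of -0.13, with 4 of 6 negative. Fibroblast and meningeal genes had a median of 0.27, and Col1a1 a log2 difference of 0.52 ± 0.25.

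ATF4 is the transcription factor through which the integrated stress response switches on genes of amino acid supply. In the background the median of its targets was 0.16 over 30 tested members of 40 listed, and 0 were called. Of these 30, 20 were positive and 10 (33.3%) negative, beside 54.5% negative over all genes. For 14 of the 30 the interval lay within a 2-fold change. The summed level of the 40 targets ran from 456 to 532 CPM in C201R (median 484) and from 358 to 479 CPM in wild type (median 433). The sum was not tested. With Cre, where 601 genes (4.11%) were called, the median of the targets was 1.30 over 39 tested members and 26 were called higher. Atf4 itself, at 21.05 to 31.2 CPM in C201R (median 23.3) and 15.8 to 24.2 CPM in wild type (median 23.7), had 0.18 ± 0.20. Psat1, an enzyme of serine synthesis, ran from 23.3 to 76.9 CPM and from 25.4 to 69.2 CPM (medians 44.1 and 36.8), with 0.15 ± 0.24 beside 2.48 ± 0.11 with Cre. Phgdh and Psph, of the same pathway, had -0.13 ± 0.42 and -0.35 ± 0.33, and Nupr1 had 0.30 ± 0.64. Members with an unadjusted p under 0.05 were the glycine transporter gene Slc6a9 (0.58 ± 0.23) and Herpud1 (0.84 ± 0.40). The amino acid transporter genes Slc7a1 (0.44 ± 0.22), Slc7a5 (0.20 ± 0.32), Slc3a2 (0.06 ± 0.24), Slc7a11 (0.17 ± 0.31), Slc38a2 (0.16 ± 0.23), Slc1a4 (0.13 ± 0.27) and Slc7a3 (1.22 ± 0.83) were positive, and Slc1a5 (-0.43 ± 0.65) was negative. The median was 0.082 without C201R mouse 14004-8, 0.088 without wild-type mouse 14702-6 and 0.27 without wild-type mouse 14701-1.

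The 10 members of the ATF4 list that failed the filter include genes of secreted hormones. Fgf21, a hormone of metabolic stress, had 32 counts over 5 C201R libraries and 2 counts over 2 wild-type libraries, a ratio of 17.4 with a 95% counting interval of 4.44 to 150. Of the 32 counts, 15 came from mouse 14003-3, and the exact two-sided permutation p over libraries was 0.019 (0.17 adjusted over the 10 members that failed the filter). Adm2, a peptide of the CGRP family, had 17 counts in C201R, 12 of them in mouse 14003-2, and 0 in wild type (exact two-sided permutation p = 0.061, adjusted p = 0.20). Against the limit of 3 counts over the group that a count of 0 allows, its pooled C201R count was 6.16-fold higher. That limit takes the C201R count as exact. Gdf15 had 10 counts, 6 of them in mouse 14003-2, against 0 (exact two-sided permutation p = 0.18). Its pooled C201R count was 3.62-fold above the same limit. Cth, an enzyme of cysteine synthesis, had 104 and 29 counts, a ratio of 3.90 (2.56 to 6.10; exact two-sided permutation p = 0.035, adjusted p = 0.17). Stc2 was even between the genotypes, and Pycr1 had fewer pooled counts in C201R. Stc2, another secreted hormone, had 39 and 43 counts (ratio 0.99, 0.62 to 1.56). Pycr1, an enzyme of proline synthesis, had 60 and 92 (ratio 0.71, 0.50 to 0.99; exact two-sided permutation p = 0.69). Of the 92 wild-type counts of Pycr1, 57 came from mouse 14702-6. The rest had more counts in C201R, at 3 and 0 (Trib3), 10 and 6 (Atf3), 58 and 42 (Cebpb) and 20 and 10 (Eif4ebp1). None of the 10 passed after adjustment. The intervals and the 2 folds over the limit cover counting error only, not the spread between mice. Scaled over all 24 libraries, the mean of Fgf21 in C201R was 0.44 CPM without Cre and 40.6 CPM with it. The level without Cre was thus 1.09% of the level with Cre. For Adm2 and Gdf15 that ratio was 6.37% and 8.35%. For Nupr1, Psph, Atf4, Ddit3, Phgdh, Atf5 and Psat1 it was higher in C201R, from 9.36% (Nupr1) to 35.2% (Psat1). In wild type these genes ran from 52.3% (Atf4) to 295% (Phgdh).

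The same ratios were taken for motor neuron genes. On the scale of all 24 libraries the mean of Chat without Cre was 2.58% of its level with Cre in C201R and 7.42% in wild type. For Chodl the ratios were 2.93% and 6.11%, and for Calca 4.41% and 7.01%. Nefl had 16.0% and 16.5%, and Cd24a 17.5% and 10.2%. Without mouse 14702-6 the wild-type ratios were 7.39% for Chat, 4.403% for Chodl, 4.11% for Calca and 13.2% for Nefl. Those of Calca and Nefl then lay below C201R. Mbp, a transcript of oligodendrocytes, was at 857% and 675% of its level with Cre. These are ratios of group means and were not tested. CPM is relative to each library's scaled total, so they do not give the part of a pulldown with Cre that is background.

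Genes of translation and protein folding had medians near 0. The 20 cytosolic tRNA synthetases had a median of -0.11 with 14 negative members, and 15 had intervals within a 2-fold change. With Cre their median was 0.67 and 12 were called higher, as were 335 of all 14634 genes (2.29%). The most abundant, Nars, ran from 83.1 to 126 CPM and from 77.1 to 144 CPM (medians 95.1 and 100.2), with -0.07 ± 0.18. Farsa was the member with an unadjusted p under 0.05 (-0.89 ± 0.38). Cytosolic ribosomal protein genes had a median of -0.00 over 81 tested members, with 40 positive and 41 negative. Among unfolded protein response genes Hspa5, the main chaperone of the endoplasmic reticulum, had -0.10 ± 0.25, and the list's median was -0.05. Heat shock genes had a median of -0.02, with Hspa8 at 0.12 ± 0.19.

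Genes called with Cre were then read in the background, where no library is shared. Of the 266 genes (1.82% of 14634) called lower in C201R with Cre, 261 were tested without Cre and 190 of these (72.8%) had a negative log2 difference, beside 54.5% of all genes. Their median was -0.15 without Cre and -0.83 with it. At an unadjusted edgeR p under 0.05, 20 were lower and 1 was higher, beside 2.06% and 1.1% of all genes. These counts were 11 and 1 without mouse 14702-6, and 14 and 4 without mice 14702-4 and 14702-6. Without C201R mouse 14003-2 the negative share was 59.2% beside 52.9% of all genes, and without wild-type mice 14702-4 and 14702-6 it was 59.5% beside 53.0%. These shares were not matched for level. With all 12 libraries, 59.5% of genes with a mean of at least 20 CPM were negative, and 48.7% of genes under 2 CPM. Of the 335 genes (2.29%) called higher with Cre, 309 were tested, 141 (45.6%) were negative and the median was 0.04. Of these 309, 10 were higher and 4 lower at an unadjusted edgeR p under 0.05, beside 1.1% and 2.06% of all genes. Without mouse 14702-6, 6 were higher and 4 lower, and without both mice 6 and 1.

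The genotype difference with Cre departed from that without Cre for 21 of 16109 genes (0.13%) by the interaction test. In the background most of these had differences near 0. Clic4, a chloride channel protein, ran from 60.2 to 102 CPM in C201R (median 75.7) and from 52.3 to 85.9 CPM in wild type (median 65.6), with 0.23 ± 0.17 beside 2.15 ± 0.17 with Cre. Pex5l and Dclk1 had -0.00 ± 0.16 and 0.06 ± 0.17, beside -1.10 ± 0.11 and -1.06 ± 0.14 with Cre. Zhx3, a transcriptional repressor, had 0.46 ± 0.18 without Cre and -0.60 ± 0.15 with it, and Apobr -1.62 ± 0.76 and 2.37 ± 0.50, so these 2 pointed in opposite directions.

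**Figure D5:**
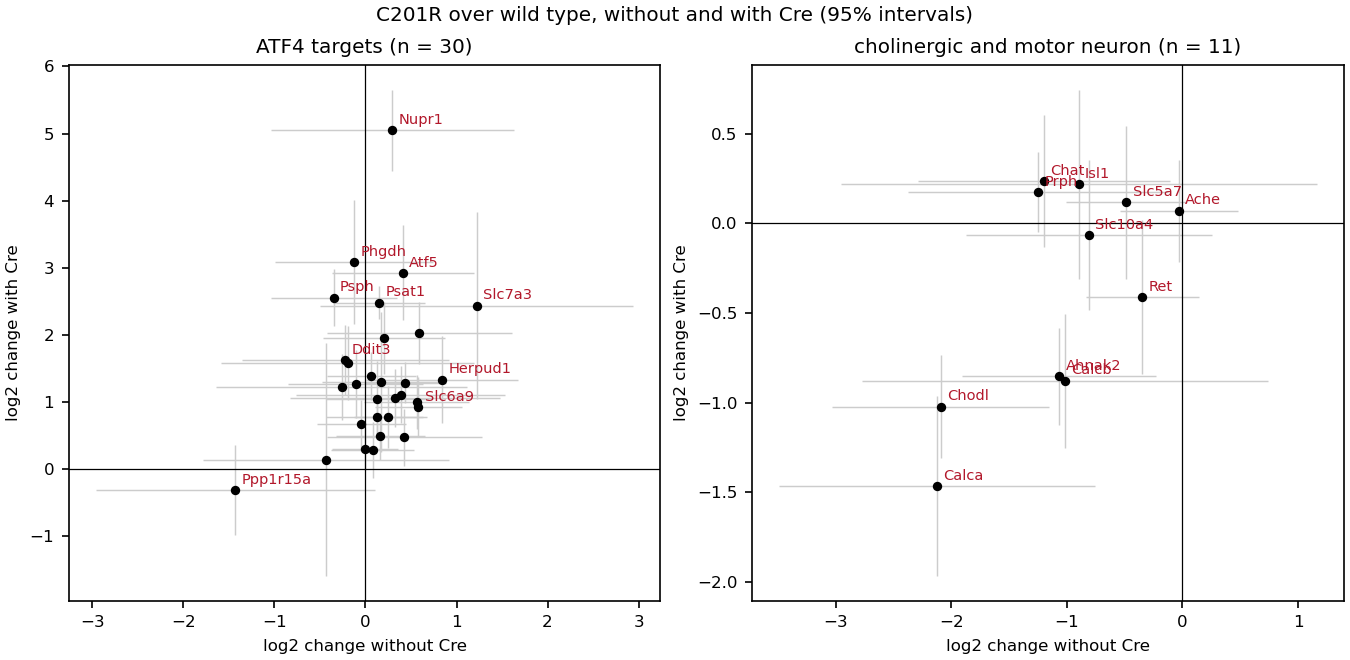
log2 difference of C201R over wild type with Cre (vertical) against that without Cre (horizontal) for the tested ATF4 targets (left) and cholinergic genes (right), with 95% intervals as grey lines. The points of the left panel lie on both sides of 0 without Cre (median 0.16) and nearly all above 0 with Cre, and those of the right panel all lie left of 0, with Chodl and Calca farthest left and lowest.

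Genes beside Gars on its chromosome were examined because a mutant allele can carry flanking DNA of the strain in which it arose. The 10 nearest measured neighbours on each side were taken in the gene order of RefSeq and matched by symbol or synonym. A match by synonym can bring in a gene from elsewhere, which was not checked. The 20 genes had 10 positive and 10 negative log2 differences and a median of 0.00. None reached an unadjusted p under 0.05. They ran from -0.54 ± 0.28 (Ggct, the nearest gene on one side) to 0.48 ± 0.49 (Nod1). Lancl2, one of the 12 genes with the smallest p in the higher direction, is the 37th protein-coding gene after Gars in that order. It lies just outside the 20, of which the farthest, Ppm1k, is the 34th. Its level ran from 27.7 to 38.9 CPM in C201R (median 29.2) and from 11.5 to 27.8 CPM in wild type (median 20.0), with 0.65 ± 0.22 beside 0.12 ± 0.13 with Cre.

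Counts of near-identical gene models traded places between libraries. The files list 2 models named Sowahc, with lengths of 4477 and 4482 bases. The first, which limma-voom called lower in C201R, had 67 to 143 counts in every wild-type library, 26 and 142 counts in C201R mice 14003-2 and 14003-3 and 0 in the other 4. The second had 32 to 248 counts in those 4 mice and at most 2 in any other library. Their sum ran from 3.76 to 16.3 CPM in C201R (median 9.29) and from 6.42 to 11.6 CPM in wild type (median 9.19), so that the groups overlapped throughout (exact two-sided permutation p = 0.93). Srp54a, of the interaction test, belongs to a trio of signal recognition particle genes. Its highest levels were 7.29 CPM among C201R and 0.35 CPM among wild-type libraries, while the sum of Srp54a, Srp54b and Srp54c ran from 18.7 to 48.7 CPM and from 22.4 to 48.0 CPM (medians 28.3 and 32.4; exact two-sided permutation p = 0.66). Calls on single models of these families are therefore uncertain.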

How the data were processed

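Gene-level expected counts and TPM values were deposited by the authors, one table per library, made with Bowtie2 2.2.0 and RSEM 1.2.12 according to the submitters' processing notes. Build and annotation are not given in the sources used here. Each table lists 38924 genes, of which 37607 matched GENCODE M21 by identifier. Expected counts were rounded to whole numbers. RSEM divides reads between near-identical genes.

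After filterByExpr and TMM scaling, each gene was tested with the robust quasi-likelihood F test of edgeR 4.0.16 in R 4.3.3. Library series (2 runs of library numbers, of unstated meaning) was a term; without Cre, series 1 holds mice 14003-2 (C201R) and 14701-1 (wild type). P-values were adjusted by Benjamini-Hochberg over all genes tested, with 0.05 as the threshold. A standard error (SE) is the log2 difference divided by the square root of F. Library measures and summed gene models were compared by exact two-sided permutation of the genotype labels. Alternatives used DESeq2 1.42.0, limma-voom 3.58.1, other scalings, filters, covariates and subsets. The code was tested on simulated data. The labels give separate mice but not litters, so p-values measure the spread between these mice.

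Genes named are Gars, Rpl22 and Chat; the 12 smallest p in each direction at a mean of at least 2 CPM, without predicted, small RNA, pseudogene and sex-linked genes; the most abundant members of each list and members whose groups do not overlap; ATF4 and cholinergic members; and genes called. The libraries compared, the lists and the rule were chosen with earlier results of these data known. Fits without mice 14702-4 and 14702-6, and with the repeat share, were added after seeing the data. Replicate libraries correlated at 0.836 to 0.941 (log2 CPM), and none agreed within sampling noise. A few genes are not reported here.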

Additional observations from a re-analysis of the deposited data

Results flagged for a closer look

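In 76 sets of 6 values (library measures and named genes), the highest or lowest library lay beyond Dixon's 95% limit in 10. Chance alone does so in about 1 of 20 sets, and the sets share their 12 libraries. Wild-type mouse 14702-6 was the highest of its group for Cd24a (172 CPM, others 64.1 to 88.8), Nefl (3210 CPM, others 1060 to 1770) and Arhgap36 (25.4 CPM, others 5.43 to 9.80). C201R mouse 14003-2 was the highest for the share of Gm26924 (7.60%, others 1.6% to 3.55%) and for Mcf2l (64.4 CPM, others 20.3 to 35.1). Wild-type mouse 14701-1, the other library of series 1, was the highest of its group for Mcf2l as well (33.9 CPM, others 14.1 to 19.8). Wild-type mouse 14702-5 had the fewest counts of the wild-type libraries (about 9140000, others about 12600000 to 13400000). Among wild-type libraries Gpr182 was highest in mouse 14004-4 (3.04 CPM) and Trmt10c in mouse 14702-1 (6.31 CPM), and among C201R libraries Nme3 was highest in mouse 14004-7 (4.68 CPM, others 3.05 to 3.62).

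The genotype difference itself differed between pulldowns with and without Cre, by edgeR's interaction test, for the following named genes. The log2 difference with Cre exceeded that without Cre for ATF4 and serine synthesis genes: by 1.57 (Atf4), 2.53 (Atf5), 4.84 (Nupr1), 2.31 (Psat1), 3.26 (Phgdh) and 2.90 (Psph). It did so by 1.92 (Clic4), 2.37 (Cyb5r1), 2.66 (Arhgef2), 1.30 (Rars), 1.42 (Hnrnpa2b1), 1.31 (Hnrnph1), 2.17 (Ddr2), 1.18 (Phf10) and 4.27 (Apobr) for genes of other roles. The interaction was negative for Zhx3 (-1.12), Ano3 (-1.44), Pex5l (-1.11), Dclk1 (-1.14) and Srp54a (-4.57), whose reads are shared with its copies.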

How the results depend on the processing

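The count of genes called without Cre was 0 with edgeR under RLE scaling, library totals, a filter of 1 CPM in 6 libraries, covariates for Xist, mitochondrial share or repeat share, series 2 alone and with any single library left out (0 to 0). It was 2 with DESeq2 (569 at an unadjusted p under 0.05), 1 with limma-voom (484), 6 without a filter and 2 with all 24 libraries in the fit; Chodl was called by DESeq2, without a filter and with all 24. With a replicate block by mouse number prefix it was 1, a model of Sowahc; with Cre the block gave 75 calls against 601, and the interaction 6 against 21. DESeq2 gave 1315 and 115. Deviations of mice that share a prefix correlated at a median of 0.01 over 10 pairs, so the prefix was not taken to pair them. Leaving out single libraries gave medians of -1.17 to -0.59 for the cholinergic list and 0.082 to 0.27 for ATF4 targets. Of 28 genes refitted under every alternative to the fit without Cre (Gars, Rpl22, Chat, Sowahc and the 12 with the smallest p in each direction), none changed direction; other genes named were not examined for this.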

Other observations

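Several other gene groups were measured in the background. The 7 tested immediate early genes, which follow neuronal activity, had a median log2 difference of 0.55 with 6 positive members, among them Egr1 (0.58 ± 0.29) and Fos (0.78 ± 0.65), and none had an unadjusted edgeR p under 0.05. The 14 cholesterol synthesis genes had a median of -0.12 with 11 negative members, and all 14 intervals lay within a 2-fold change. Of 12 reactive glia genes 8 were tested and 7 were positive; the complement gene C3 had 0.71 ± 0.33. The Hox genes Hoxc8 (0.46 ± 0.18) and Hoxd8 (-0.41 ± 0.19) lay on opposite sides of 0. In each genotype 3 of 6 libraries had more Xist than Y-linked counts.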
